A study of Mus musculus with 24 samples.

Results

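The Wnt signalling genes described here are 51 mouse genes of the Wnt pathway, and the values are methylation percentages of CpGs in the dentate gyrus. A CpG was counted for a gene when it lay inside the gene or within 2000 bases of it in GENCODE M21 on the mm10 genome. The genes were sorted by role into 19 Wnt ligands, 12 receptors, 8 secreted inhibitors and 12 intracellular components. Of 762162 CpGs in the table, 3204 belonged to 50 of the genes, and no CpG of the ligand gene Wnt16 was measured. Of these CpGs, 242 were measured in every mouse.

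The mice were C57BL/6JRj females. Standard housing is written STD, and ENR stands for an enriched environment, a large enclosure with toys and tunnels. The groups were Young STD (1.5 months old, 5 mice), Aged STD (14 months old, 7 mice) and Aged ENR (14 months old, 7 mice that had lived in enrichment). Micro-dissected dentate gyrus of each mouse was profiled by reduced representation bisulfite sequencing (RRBS), which reads CpG-rich restriction fragments of the genome, and each mouse gave 1 library. The tissue holds granule neurons together with glia and other cells, and a methylation percentage is an average over all of them, so that a change within cells and a change in the share of a cell type cannot be told apart.

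Wnt ligands are secreted lipid-modified proteins that bind Frizzled (Fzd) receptors and the co-receptors Lrp5 and Lrp6. In the canonical branch, receptor binding recruits Dishevelled (Dvl) proteins, the destruction complex of Axin, Apc and Gsk3b stops degrading beta-catenin (Ctnnb1), and beta-catenin then acts with transcription factors of the TCF/LEF family (Lef1, Tcf7, Tcf7l1, Tcf7l2). Secreted Frizzled-related proteins (Sfrp) bind ligands, and Dickkopf proteins (Dkk) mostly block the co-receptors. In the adult dentate gyrus Wnt signals from astrocytes and other cells are known to act on the proliferation and neuronal differentiation of neural stem cells. Methylation near a transcription start is generally low at CpG-rich promoters and higher within genes, and the 2 parts of each gene were therefore kept apart.

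The promoter was taken as all bases within 1000 bases of an annotated transcription start of the gene, and the body as the rest of the gene with its 2000-base flanks. The value of a region in a mouse is the mean over its measured CpGs after each CpG was centred on its mean over the groups, so that a mouse lacking a CpG is not shifted by it. Centring lets a value pass the ends of the percent scale, and member values ran from -7.94 to 101.5%. A mouse needed 3 CpGs in a region and a group needed 3 mice, which left 47 promoters and 43 bodies, 90 regions in all, with both parts in 40 genes. Single mice had values at 64.3% to 95.2% of all CpGs and at 1857 to 3095 of the member CpGs. Read numbers were not in the table, so the precision of single percentages is unknown. The covered CpGs were not the same in each library. A composition index, the mean Young STD methylation of the CpGs measured in a mouse, ran from 19.5 to 38.0, and Aged STD replicates 3, 4 and 6 had the 3 lowest values, 19.5 to 20.8. The library numbers in the labels begin with 27 or 37, called library series here, and every group holds mice of both. Where this index as a term in the model, or leaving out these 3 mice, moved the difference of a named region by more than 1.5 times, the value is given beside it.

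Member promoters were nearly free of methylation. Over all mice, the median promoter of the Wnt genes stood at 1.93%, beside 2.20% over all 18889 promoters measured and 1.93% over those of protein-coding genes. Of the 47 member promoters, 45 were under 20% and 34 were under 5%. The share under 20% was 95.7%, beside 81.2% over all genes and 87.6% over protein-coding genes. Member promoters were also rich in CpG, with a median of 4.37 CpGs per 100 bases beside 2.75 over all genes, and receptor promoters were the richest class at 6.74. Across the 47 members the rank correlation of CpG density with methylation was -0.30, a description over genes that share libraries and differ in base composition.

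The lowest promoters came from every class. In Young STD mice the lowest promoter of each class was that of Wnt3a (0.693% ± 0.482, SD, n = 5), Fzd8 (0.253% ± 0.246), Dkk1 (0.0186% ± 0.293) and Dvl3 (0.125% ± 0.295). Wnt3a is a canonical ligand, Fzd8 a Frizzled receptor, Dkk1 a soluble antagonist of Lrp6, and Dvl3 a Dishevelled protein. The highest promoter of the inhibitors, that of Dkk3, still stood at only 3.49% ± 0.899. Among the ligands the highest was that of Wnt10a, with 33.8% ± 22.1 in the 3 Young STD mice that had a value. Its mean was 17.4% over all mice.

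Only Lrp5 and Axin1 had promoters over 20% when all mice were averaged. The Lrp5 promoter value rested on 4 CpGs and stood at 52.2% ± 22.2 in Young STD (n = 4), 53.5% ± 16.9 in Aged STD (n = 3) and 50.1% ± 30.4 in Aged ENR (n = 5). Lrp5 encodes a co-receptor of Wnt ligands, and its 4 CpGs had means between 28.3% and 70.6%. The Axin1 promoter stood at 43.8% ± 3.17 (n = 4), 44.0% ± 3.06 (n = 7) and 44.2% ± 4.92 (n = 7). Axin1 is the scaffold of the destruction complex, and its 3 group means differed by less than the spread between mice.

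The Axin1 value is a mixture of starts that were not alike. Starts closer than 1000 bases were joined, and each CpG was given to its nearest group of starts. The 7 CpGs at the first starts of Axin1 (chr17:26138751-26138799) averaged 1.06%, while the 6 CpGs at an internal start (chr17:26188166-26188336) averaged 93.6%. The internal start lies at a coding exon. Among the 12 members with more than 1 such group measured, 7 had groups over 20 points apart. In each of the 7 at least 1 group of starts was under 5%. These genes were chosen after their values were seen. Dvl1, which encodes a Dishevelled protein, had 21 CpGs at its first starts averaging 1.47% and 5 CpGs at an internal start averaging 92.7%. Ctnnb1 had 56 CpGs averaging 2.81% at its main group of starts and 4 CpGs averaging 68.7% at a start further upstream. Wnt7b, a ligand expressed in forebrain, had an internal group of 6 CpGs at 37.9% while its other groups were at 1.60% and 2.35%. Fzd6 had groups at 1.39% and 34.8%, Wnt5a at 1.38% to 32.1%, and Wnt5b at 4.43% and 26.3%.

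The sequences of these Dvl1 and Axin1 starts show how differently the measured CpGs are set. They are read from the plus strand of GRCm38, the strand of both genes, with measured CpGs in capitals. The first Dvl1 stretch lies upstream of the annotated transcripts at chr4:155847072-155847286, and the other 2 lie at coding exons, at chr4:155854327-155854376 for Dvl1 and chr17:26188158-26188344 for Axin1.
Dvl1 upstream: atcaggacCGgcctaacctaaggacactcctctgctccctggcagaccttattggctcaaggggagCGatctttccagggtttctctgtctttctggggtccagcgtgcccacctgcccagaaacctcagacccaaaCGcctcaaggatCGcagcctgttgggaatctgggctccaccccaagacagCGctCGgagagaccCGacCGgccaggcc
Dvl1 internal: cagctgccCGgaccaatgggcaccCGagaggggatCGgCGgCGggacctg
Axin1 internal: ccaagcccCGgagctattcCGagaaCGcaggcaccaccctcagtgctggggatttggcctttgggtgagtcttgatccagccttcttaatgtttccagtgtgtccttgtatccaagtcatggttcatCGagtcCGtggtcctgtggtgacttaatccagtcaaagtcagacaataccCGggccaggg
In the upstream Dvl1 stretch 8 CpGs were measured, and in Young STD mice 7 of them were at 0% in every mouse while the other reached 6.25% in a single mouse. The 5 CpGs of the internal Dvl1 stretch ran from 84.4% to 95.4% in the same group. The 6 CpGs of the Axin1 stretch ran from 81.4% to 100% in Young STD.

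**Figure D1:**
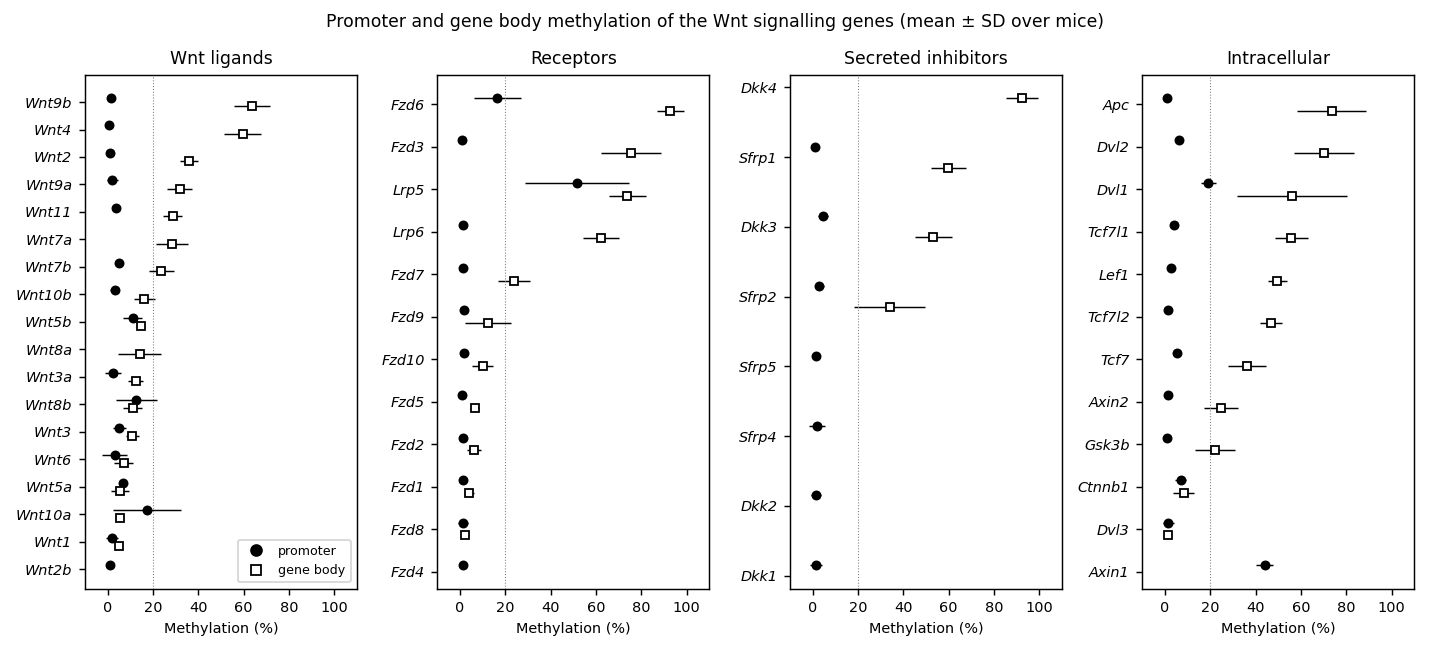
Methylation (%) of each Wnt signalling gene, with the mean over mice and bars of 1 SD between mice. Filled circles are promoters and open squares gene bodies, and the dotted line marks 20%. Promoters lie under the dotted line except those of Lrp5 (51.6%) and Axin1 (44.0%), while bodies run from 1.36% (Dvl3) to 92.7% (Fzd6).

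Bodies ran from 1.36% to 92.7%. The median member body stood at 24.5%, beside 49.5% over all 16726 bodies and 53.2% over protein-coding genes. Of the 43 member bodies 18, or 41.9%, were under 20%, beside 27.6% over all genes and 22.2% over protein-coding genes. Another 52 genes of the pathway, which include Wnt secretion factors, R-spondins, planar polarity genes and targets, had a median body level of 47.7%. The classes differed in this: the median body stood at 14.95% in 17 ligands, 12.2% in 11 receptors, 46.9% in 11 intracellular genes and 56.6% in 4 inhibitors. By means the order was another, with 22.01% in ligands, 33.4% in receptors, 40.2% in intracellular genes and 59.6% in inhibitors. Over the CpGs measured in all mice the mean was 10.1% in ligands, 3.60% in receptors and 8.01% in intracellular genes.

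Ligands and receptors each held very low and very high bodies. In Young STD mice the lowest ligand body was that of Wnt5a (4.11% ± 1.76, 15 CpGs), a mainly non-canonical ligand, and over all mice the bodies of Wnt1, Wnt10a, Wnt6, Wnt3, Wnt8b, Wnt3a, Wnt8a, Wnt5b and Wnt10b were also under 20%. The Wnt5b body stayed at 14.95% over 111 CpGs. Wnt4 (63.4% ± 5.16) and Wnt9b (63.8% over all mice) had the highest ligand bodies. The lowest receptor body was that of Fzd8 (3.04% ± 2.80, 62 CpGs). Most Frizzled genes have a single coding exon, so that their body lies close to the start, and the bodies of Fzd1, Fzd2, Fzd5, Fzd8, Fzd9 and Fzd10 ran from 2.05% to 12.2%, with Fzd7 at 23.8%. Frizzled genes with several coding exons were at the other end: Fzd6 had 91.4% ± 5.99 and Fzd3 82.2% ± 5.25 in Young STD. The co-receptor bodies were also high, at 73.8% for Lrp5 and 62.3% for Lrp6.

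Of the 4 inhibitor bodies 3 were over 50%, and of the 11 intracellular bodies 4 were. The 6 CpGs of Dkk4 were in its flank and stood at 93.5% ± 7.16 in Young STD. The gene Polb overlaps Dkk4 or its flanks. Sfrp2 had the lowest inhibitor body, 45.3% ± 13.8. Among intracellular genes Apc, a scaffold of the destruction complex, was highest with 84.5% ± 5.34, and Dvl3 was lowest with 1.80% ± 1.54. The body of Axin2, a feedback inhibitor that is itself a canonical Wnt target, stood at 24.5% over 48 CpGs, of which 43 were intronic. Bodies of the TCF/LEF genes Tcf7, Tcf7l2, Lef1 and Tcf7l1 lay between 35.5% and 58.4% in Young STD.

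The promoter was below the body in every mouse in 25 of the 40 members with both parts, or 62.5%, beside 65.7% over all genes and 72.8% over protein-coding genes. Over the CpGs measured in all mice, which left 5 genes, it held in 0 of them. With all CpGs it held in 7 of 15 ligands, 7 of 11 receptors, 3 of 3 inhibitors and 8 of 11 intracellular genes. No member had its promoter above its body in every mouse, whereas 377 of 10753 genes did. The median gap between body and promoter was 11.6 points in ligands, 8.62 in receptors and 37.8 in intracellular genes. The largest gaps belonged to genes with bare promoters and full bodies, such as Fzd3 and Apc with median gaps of 77.4 and 77.0 points.

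Distance from the start separated the classes further. Within 500 bases downstream of a start the Young STD mean over member CpGs was 2.69% in ligands, 0.990% in receptors, 1.16% in inhibitors and 5.63% in intracellular genes. Between 2000 and 5000 bases downstream it reached 17.5% in ligands and 19.7% in receptors but 39.2% in intracellular genes and 75.1% in inhibitors. The inhibitor value rested on 13 CpGs of 2 genes. Ligands stayed low even further in, with 14.9% between 5000 and 10000 bases, where intracellular genes had 88.9% over 22 CpGs of 5 genes. Beyond 10000 bases ligands averaged 35.7% over 158 CpGs and receptors 89.7% over 30 CpGs. Intracellular genes were at 53.9% there over 212 CpGs, and inhibitors at 59.0% over 13 CpGs. By annotation, intronic CpGs of ligands had a median of 3.84% (392 CpGs), beside 41.0% in intracellular genes (332 CpGs), and exonic CpGs had 2.31% and 60.2%.

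**Figure D2:**
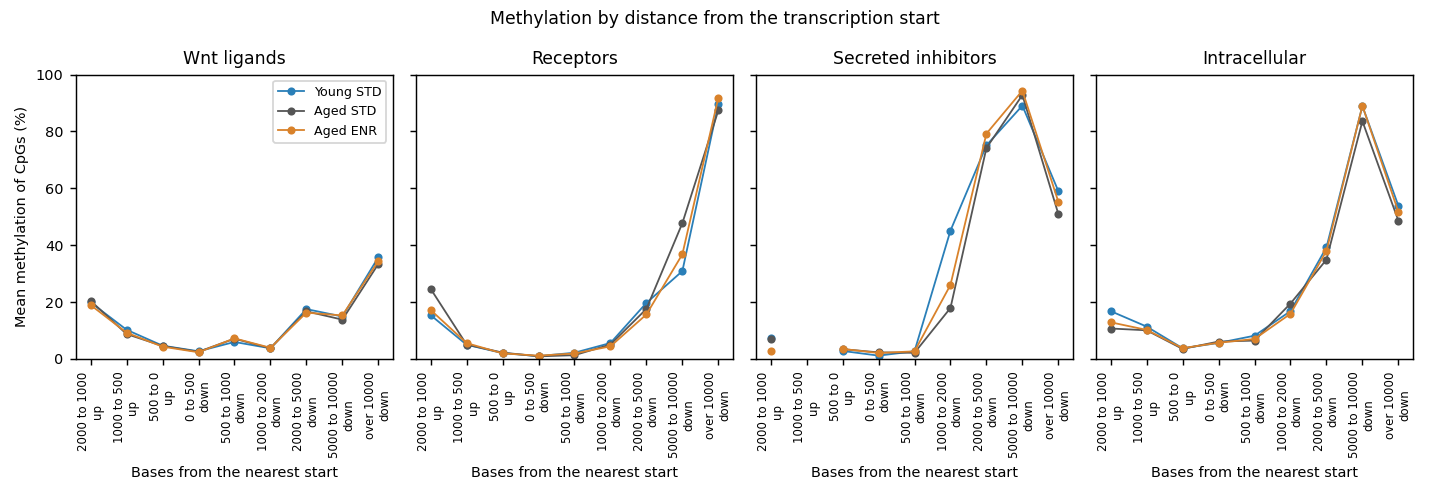
Mean methylation (%) of member CpGs by distance in bases from the nearest transcription start, for the 4 classes and the 3 groups of mice (lines). All classes are lowest around the start, and ligands stay low further into the gene; the inhibitor point between 1000 and 2000 bases downstream rests on 7 CpGs of 2 genes.

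Mean levels of a class were then compared between groups of mice, with no test because the members had been chosen with results known. Ligand bodies stood at 22.4% ± 1.50 in Young STD (n = 5), 21.4% ± 2.83 in Aged STD (n = 7) and 22.3% ± 2.18 in Aged ENR (n = 7). Receptor bodies stood at 35.4% ± 1.57, 33.4% ± 2.09 and 32.1% ± 3.24, and inhibitor bodies at 63.7% ± 7.06, 55.7% ± 5.06 and 60.4% ± 8.28. In these 3 classes the groups overlapped. Without Aged STD replicates 3, 4 and 6 the ligand body difference turned from -0.99 to 1.24 points between Aged STD and Young STD and from 0.81 to -1.40 points between Aged ENR and Aged STD, and the receptor body difference in the same comparisons was -0.88 instead of -1.9995 and -2.51 instead of -1.37 points. Intracellular bodies had the widest gap for its spread, with 44.7% ± 3.86 in Young STD, 36.95% ± 5.01 in Aged STD and 40.3% ± 4.36 in Aged ENR. The mice of these groups ran from 41.0% to 49.0%, from 31.9% to 46.9% and from 32.3% to 46.0%, so the groups overlapped here too. Without Aged STD replicates 3, 4 and 6 the difference of the intracellular bodies between Aged STD and Young STD was -6.24 points instead of -7.77, and that of the inhibitor bodies -2.98 instead of -8.00, over the regions that still had enough mice. Between Aged ENR and Aged STD it was 1.60 instead of 3.33 points in intracellular and 2.40 instead of 4.63 points in inhibitor bodies. The inhibitor body difference between Aged ENR and Young STD was -0.58 points over these regions instead of -3.38.

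The class differences also moved with the CpGs and genes averaged. They were computed again without centring, over CpGs measured in all mice (which left no inhibitor body), with promoters of 500 or 2000 bases, over CpGs instead of genes, and without Aged STD replicates 3, 4 and 6. Between Aged STD and Young STD the body difference then ran from -2.89 to 1.24 points in ligands, from -3.19 to 1.94 in receptors, from -12.9 to -2.98 in inhibitors and from -10.5 to -2.01 in intracellular genes. Between Aged ENR and Aged STD it ran from -1.40 to 0.92, from -2.51 to -0.70, from 2.40 to 6.95 and from 0.74 to 3.82 points in the same order. The ranges between Aged ENR and Young STD were -2.03 to 0.29, -5.54 to 0.27, -5.95 to 0.77 and -7.04 to -1.27 points. The sign thus turned under at least 1 setting in ligand bodies in all comparisons, in receptor bodies in both comparisons with Young STD and in inhibitor bodies between Aged ENR and Young STD. Promoter differences were small in the values first described, the largest being -1.32 points in ligands between Aged STD and Young STD. This one ran from -1.59 to -0.030 points over the settings, and all promoter differences ran from -1.59 to 2.63, the last in intracellular genes between Aged ENR and Aged STD without centring.

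**Figure D3:**
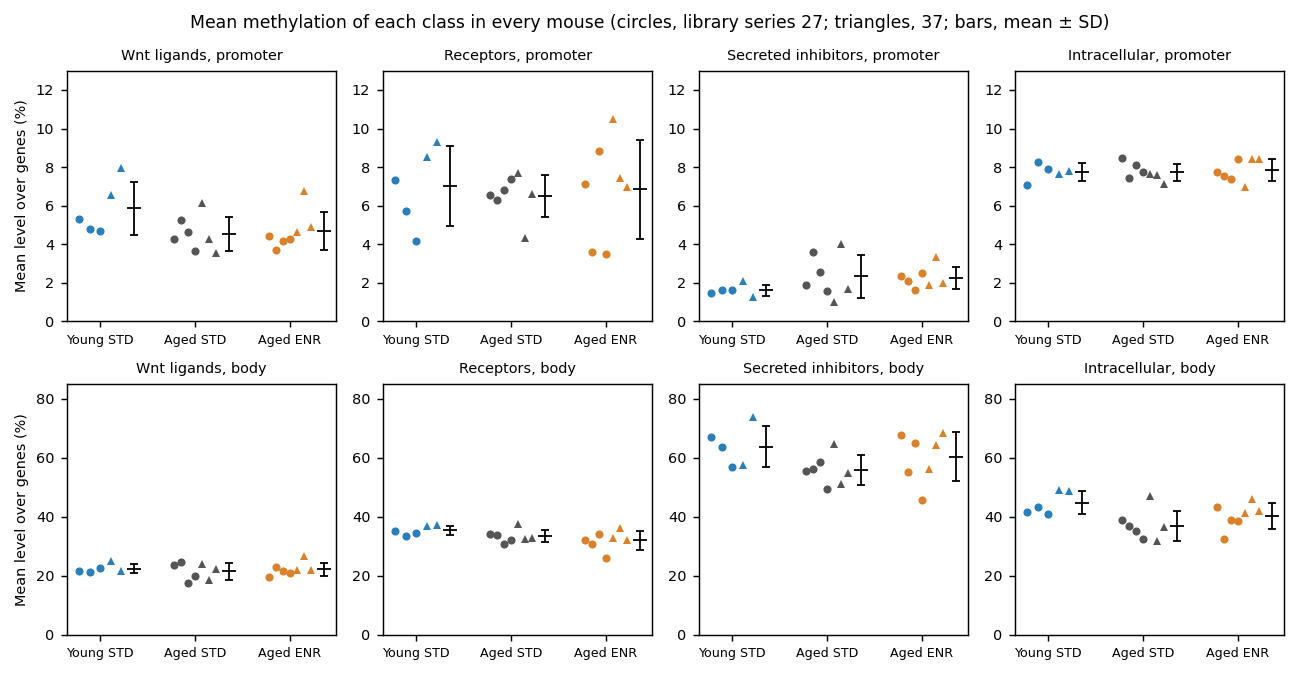
Mean methylation (%) over the genes of each class in every mouse, promoters above and bodies below, on different axes. Points are mice, circles for library series 27 and triangles for series 37, and bars give the mean ± SD of a group; the groups overlap in all 8 panels.

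The question of age was addressed by comparing Aged STD with Young STD mice. No member region passed the test after adjustment over all 35525 regions (limma, adjusted p under 0.05). The same was true of the table as a whole, 0% of regions, with a smallest adjusted p of 0.119 over all regions and of 0.285 over members. At an unadjusted p under 0.05 there were 8 of 90 member regions, or 8.89%, all lower in Aged STD, beside 8.63% of all regions, of which 2533 of 3066 were lower. The 8 were 1 promoter and 7 bodies, and among bodies alone the share was 16.3% of members and 11.2% of all genes. The median difference of member bodies was -2.11 points, beside -2.17 points over all bodies. Without Aged STD replicates 3, 4 and 6, 5 of the 85 member regions that still had enough mice had a p under 0.05. That is 5.88%, beside 5.83% of all regions, and 3 of the 5 were lower (1126 of 1936 over all regions). The median over members moved from -0.37 to -0.080 points, and that over all regions from -0.49 to -0.18.

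The groups did not overlap at 3 of the 90 member regions, beside 1.55% of all regions. The body of Apc was the first of these. The Young STD mice had 79.6%, 87.3%, 77.9%, 88.4% and 89.3%, and the 7 Aged STD mice ran from 35.0% over a median of 63.3% to 74.0%. Every Young STD mouse was thus above every Aged STD mouse. The difference was -26.2 points (95% interval -38.7 to -13.8, limma adjusted p = 0.285), and an exact two-sided permutation test of this single value gave p = 0.00253 over 792 labellings. The regions named here were picked for the size of their difference or a small p among the member regions, so this and the other exact permutation p-values describe the overlap of the mice and are no evidence of a difference. The p adjusted over all regions takes their number into account. With the composition index in the model the difference was -21.0 points, and without Aged STD replicates 3, 4 and 6 it was -21.2. It was -24.8 points within library series 27 and -28.7 within series 37. The 8 CpGs lay at 5 intronic and 3 exonic positions, and the gene Gm10548 overlaps Apc. A single intronic CpG was at 100% in all 5 Young STD mice and at 48.1% ± 37.9 in Aged STD (n = 5), while the 2 most downstream CpGs were at 100% in Aged STD (n = 3) beside 92.5% and 91.4% in Young STD (n = 4).

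The Wnt10a promoter was the second. Only 3 Young STD mice had a value, 29.5%, 14.3% and 57.8%, and the 5 Aged STD mice had 14.2%, 7.05%, 2.93%, 12.4% and 6.75%. The groups were apart by less than 1 point at their border. The difference was -25.2 points (95% interval -44.3 to -6.08, adjusted p = 0.484), with an exact permutation p of 0.0179, the smallest that 56 labellings allow. Leaving out Young STD replicate 5 brought it to -13.3 points, so that its size rested on that mouse. Wnt10a (chr1:74791516-74804179) encodes a canonical ligand, and 5 of the 7 CpGs lie in a short stretch at a coding exon next to an internal start, shown here from the plus strand with the measured CpGs in capitals (chr1:74793471-74793559).
Wnt10a promoter: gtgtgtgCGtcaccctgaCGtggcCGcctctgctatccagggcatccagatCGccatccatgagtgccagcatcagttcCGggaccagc
The first of these CpGs averaged 51.4% ± 42.3 in Young STD (n = 3) and 1.45% ± 3.55 in Aged STD (n = 6), and the last averaged 26.0% ± 23.8 (n = 3) and 0% in all 4 Aged STD mice with a value. All 5 had a lower mean in Aged STD, and in Young STD the SD of these CpGs ran from 16.0 to 51.8 points over 3 mice.

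The third was the body of Sfrp2, a secreted inhibitor, which rested on 4 intronic CpGs and was named after its values were seen because it fell short of the 5 CpGs asked of other named regions. The 4 Young STD mice had 49.8%, 38.1%, 31.0% and 62.4%, and the 3 Aged STD mice had 22.3%, 25% and 22.98%. The difference was -21.9 points (95% interval -39.7 to -4.06, adjusted p = 0.514). The annotated gene Gm26771 overlaps Sfrp2, and without Aged STD replicates 3 and 6 a single Aged STD mouse would be left.

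The next differences were at bodies whose groups overlapped. Dvl2 had 70.7%, 76.2%, 77.4%, 94.96% and 88.9% in the Young STD mice, and the 6 Aged STD mice with a value ran from 50.3% over a median of 60.5% to 74.9%. Its difference was -20.3 points (95% interval -33.0 to -7.64, adjusted p = 0.394, exact permutation p = 0.0130), with -9.52 points within library series 27 and -34.6 within series 37. The genes Acadvl, Mir324 and Phf23 overlap Dvl2. Of its 9 exonic CpGs, 5 lie in a stretch of a coding exon at chr11:70009303-70009376, printed because its CpGs did not move alike.
Dvl2 body: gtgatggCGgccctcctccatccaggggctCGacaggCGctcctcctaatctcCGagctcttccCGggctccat
The last CpG of this stretch averaged 75.1% ± 24.8 in Young STD (n = 5) and was at 0% in all 4 Aged STD mice with a value, whereas the first averaged 84.2% ± 18.3 and 100% (n = 4 each).

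Fzd9, which encodes a Frizzled receptor, had Young STD values of 21.4%, 14.8%, 21.8%, 28.9% and 24.9% at its body, and Aged STD values from 1.02% over a median of 5.49% to 33.6%. The difference was -12.7 points (95% interval -23.8 to -1.64, adjusted p = 0.530, exact permutation p = 0.0480). Among the aged mice, Aged STD replicate 5 alone exceeded all Young STD mice, and it also had the highest composition index. With the index in the model the difference was -6.43 points, and without Aged STD replicates 3, 4 and 6 it was -8.19 points. Whether library composition has a part in it was not tested. The other 3 regions with an unadjusted p under 0.05 were the bodies of Wnt4 (-11.4 points), Ctnnb1 (-6.58 points) and Wnt3 (-3.64 points), named after their values were seen. With the composition index these were -6.87, -4.80 and -1.99 points, and without Aged STD replicates 3, 4 and 6 they were -6.41, -4.94 and -1.76 points. Differences in the other direction were small. The 4 named were Wnt9b body (5.29 points, 95% interval -4.52 to 15.1), Wnt3 promoter (3.44 points, -0.17 to 7.05), Fzd7 body (3.40 points, -3.99 to 10.8) and Tcf7 body (3.34 points, -7.97 to 14.6), with adjusted p from 0.590 to 0.857. The Fzd7 difference turned to -3.59 points with promoters of 2000 bases. Wnt9b was at 10.7 points within library series 27 and at -2.02 points within series 37. Leaving out single mice moved Fzd7 between 1.58 and 5.29 points, Tcf7 between 0.716 and 5.87 and Wnt9b between 2.99 and 7.36. Without Aged STD replicates 3, 4 and 6 Fzd7 was at 5.41 points, and Tcf7 had no value. With the composition index Fzd7 was at 5.47 and Tcf7 at 7.02 points.

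**Figure D4:**
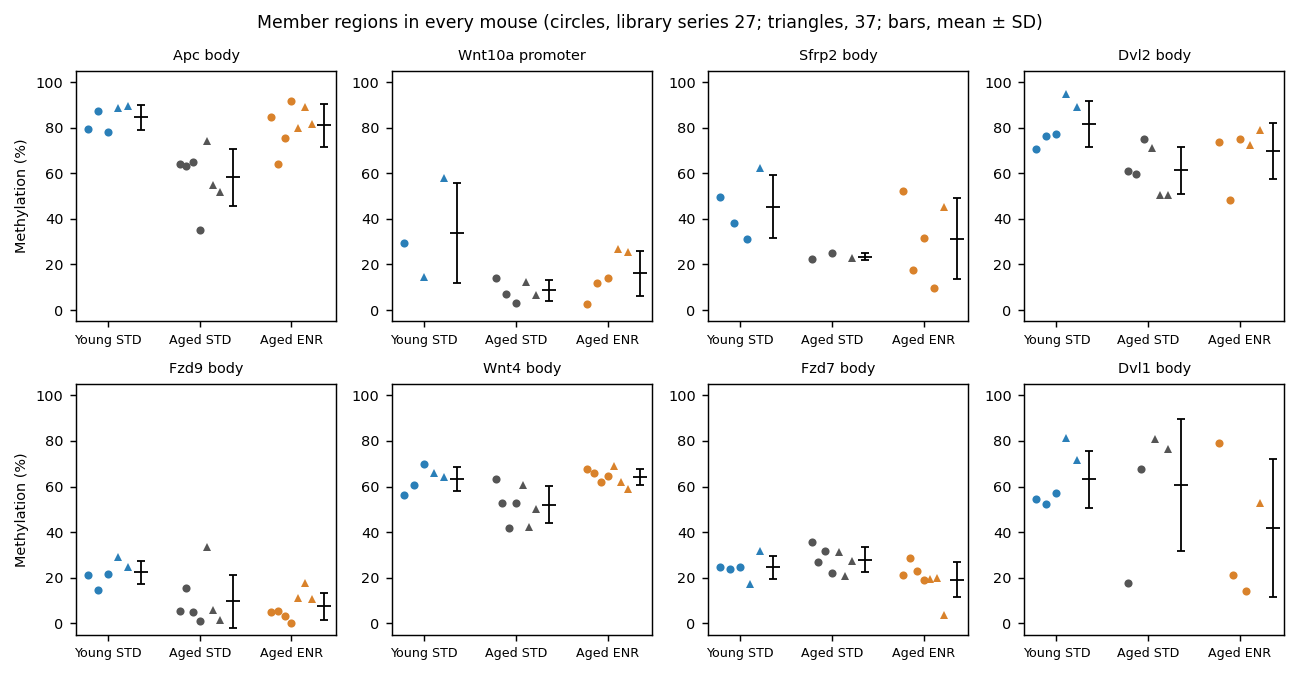
Methylation (%) of 8 member regions in every mouse of the 3 groups. Points are mice, circles for library series 27 and triangles for series 37, and bars give the mean ± SD; the Apc body is lower in all Aged STD mice than in any Young STD mouse, and the Wnt10a and Sfrp2 regions have values in few mice.

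The effect of enrichment in old age was addressed by comparing Aged ENR with Aged STD. No member region passed the test, as in the whole table (0% of 35529 regions, smallest adjusted p 0.642 over all regions and 0.953 over members). At an unadjusted p under 0.05 there were 3 of 90 member regions, beside 4.55% of all regions, of which 569 of 1618 were lower in Aged ENR. At no member region were the groups apart, beside 0.473% of all regions. The median difference was 0.061 points over members and 0.24 points over all regions. It turned to -0.076 points over members and -0.11 points over all regions without Aged STD replicates 3, 4 and 6. Without Aged STD replicates 3, 4 and 6, 4 of 85 member regions had a p under 0.05, or 4.71%, beside 4.23% of all regions. Of the 4, 3 were lower in Aged ENR, beside 929 of 1405 over all regions.

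The 3 regions were the bodies of Apc, Wnt4 and Fzd7. The Apc body ran from 63.9% over a median of 81.6% to 91.9% in the 7 Aged ENR mice, against 35.0% to 74.0% in Aged STD, so that 6 of the 7 Aged ENR mice were above all Aged STD mice. The difference was 22.7 points (95% interval 10.7 to 34.8, adjusted p = 0.953, exact permutation p = 0.00233 over 3432 labellings), and 17.6 points without Aged STD replicates 3, 4 and 6. The Aged STD mice are the same ones as in the comparison with Young STD, so the 2 differences at this region are not independent.

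Wnt4, a ligand with a body of 17 CpGs, had 58.9% to 68.9% in Aged ENR with a median of 64.5%, and 41.9% to 63.2% in Aged STD with a median of 52.6%. The difference was 12.4 points (95% interval 4.59 to 20.1, adjusted p = 0.953, exact permutation p = 0.00466), and it was 12.5 points within library series 27 and 12.2 within series 37. Without Aged STD replicates 3, 4 and 6 it was 7.38 points. Only 2 of the 17 CpGs were measured in every mouse, and these intronic CpGs lie at both ends of this stretch (chr4:137291055-137291130).
Wnt4 body: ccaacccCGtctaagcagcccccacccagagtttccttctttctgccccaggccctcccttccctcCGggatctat
The first averaged 83.8% ± 14.3 in Aged ENR, 40.7% ± 39.5 in Aged STD and 59.4% ± 21.3 in Young STD, and the other 79.2% ± 20.4, 24.0% ± 26.1 and 49.4% ± 17.1. The Aged STD mice covered from 0% to 100% at the first and from 0% to 69.6% at the other.

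Fzd7 went the other way. Its body, 26 exonic and 8 flanking CpGs, ran from 3.63% over a median of 19.8% to 28.7% in Aged ENR and from 20.6% over 27.5% to 35.8% in Aged STD. The difference was -8.71 points (95% interval -16.4 to -1.03, exact permutation p = 0.0216), and -5.83 points without Aged ENR replicate 7, the mouse at 3.63%. The other named regions had intervals that held 0. These were the bodies of Sfrp1 (8.54 points, -0.54 to 17.6), Dvl2 (8.31 points, -5.76 to 22.4), Fzd3 (-11.6 points, -27.1 to 3.94), Tcf7 (-5.31 points, -15.6 to 4.94) and Dvl1 (-18.9 points, -59.5 to 21.7). Without Aged STD replicates 3, 4 and 6 the Sfrp1 difference was 5.25 points and that of Fzd3 -17.8 points, and Tcf7 had no value. The Dvl1 difference turned to 1.51 points when 1 CpG per mouse was enough. Leaving out single mice moved Dvl1 between -33.1 and -8.21 points, Fzd3 between -19.0 and -9.27, Tcf7 between -7.91 and -2.74, Dvl2 between 6.05 and 12.6 and Sfrp1 between 5.57 and 10.96.

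**Figure D5:**
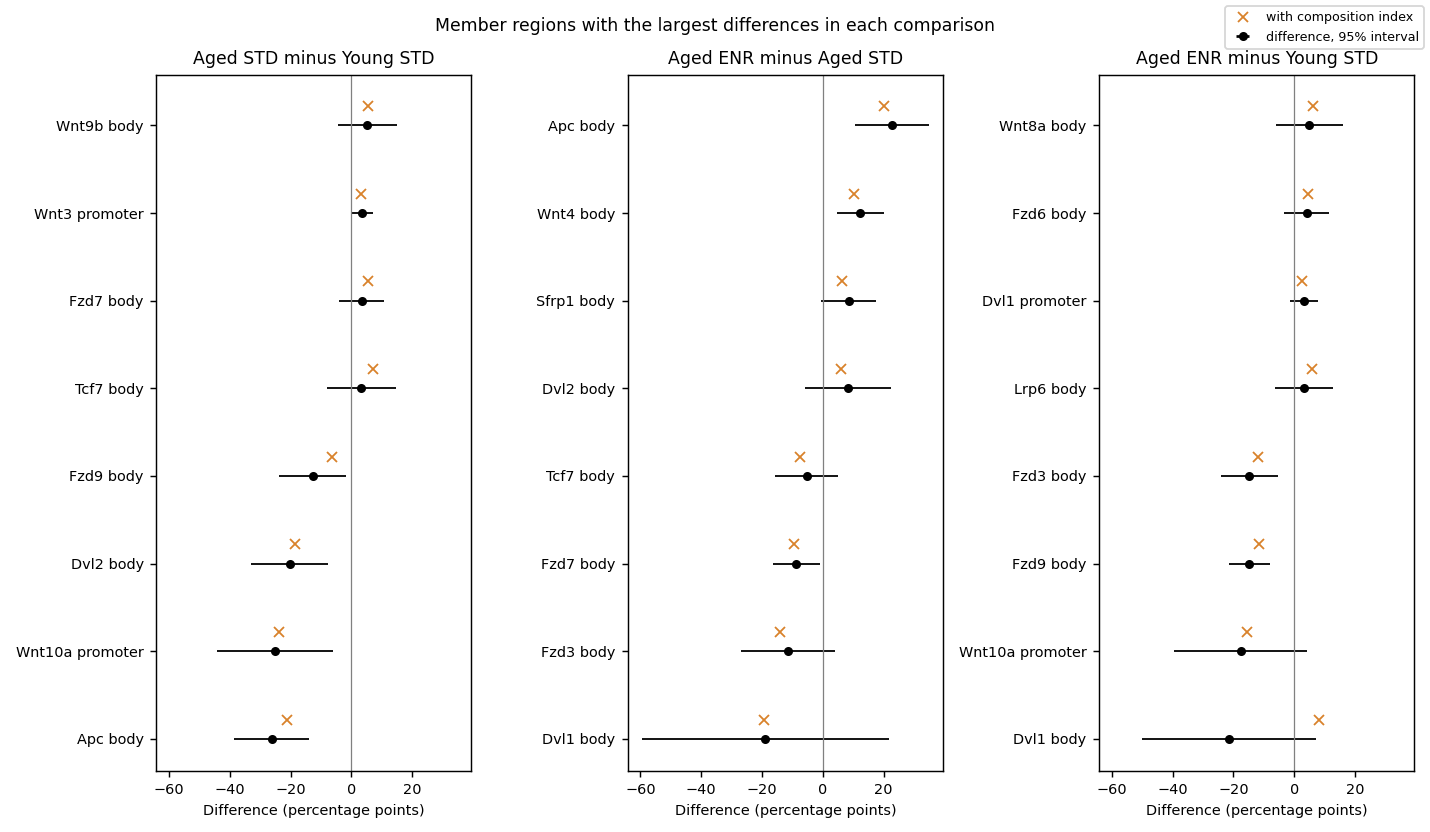
Differences in methylation (percentage points) at the 8 member regions named in each comparison, the 4 with the largest positive and the 4 with the largest negative values. Points are differences with 95% intervals, and crosses are the same differences with the composition index in the model; at the Dvl1 body the cross lies at 8.16 where the difference between Aged ENR and Young STD is -21.5.

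Aged ENR mice were also set against Young STD mice, which differ from them in age and housing together. Again no member region passed the test (0% of 35529 regions in the whole table, smallest adjusted p 0.231 over all and 0.308 over members). An unadjusted p under 0.05 was reached at 5 of 90 member regions, beside 7.04% of all regions, with 3 lower and 2 higher in Aged ENR (1861 of 2500 lower over all regions). The 3 were the bodies of Fzd9, Fzd3 and Ctnnb1 (-6.15 points), and the 2 the promoters of Wnt3a (2.00 points) and Wnt9b (1.07 points), the last 3 named after their values were seen. The groups were apart at none, beside 1.14% of all regions. This comparison shares its mice with the other 2.

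The Fzd9 body had the smallest p among members here. Its Aged ENR values ran from 0% over a median of 5.29% to 17.7%, and only the highest of them passed the lowest Young STD mouse at 14.8%. The difference was -14.8 points (95% interval -21.6 to -7.98, adjusted p = 0.308, exact permutation p = 0.00505), -11.7 points with the composition index, -15.9 within library series 27 and -13.7 within series 37. The body of Fzd3, a receptor known for its role in axon guidance, was at 57.3% to 82.9% in Aged ENR and at 86.8%, 80.1%, 76.8%, 78.7% and 88.8% in Young STD, a difference of -14.8 points (95% interval -24.2 to -5.34, adjusted p = 0.521). A single exonic CpG had the widest gap, 9.41% ± 21.0 in Aged ENR and 72.3% ± 30.9 in Young STD (n = 5 each). The Apc body, at 81.0% ± 9.34 in Aged ENR and 84.5% ± 5.34 in Young STD, differed by less than the spread between mice.

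The other named values were less certain. The Dvl1 body, where the gene Tas1r3 overlaps, rested on 4 Aged ENR mice with 79.2%, 21.1%, 14.0% and 52.9%, and its difference of -21.5 points (95% interval -50.2 to 7.14) turned to 8.16 points with the composition index in the model. At the Wnt10a promoter the difference was -17.6 points (95% interval -39.4 to 4.13), -5.68 points without Young STD replicate 5 and -27.4 points without Young STD replicate 4. The 4 largest positive differences were Wnt8a body (4.95 points, -6.01 to 15.9), Fzd6 body (4.05 points, -3.28 to 11.4), Dvl1 promoter (3.29 points, -1.29 to 7.87) and Lrp6 body (3.24 points, -6.26 to 12.7). None of these intervals left out 0. Leaving out single mice moved Wnt8a between 2.51 and 7.75 points, Fzd6 between 2.58 and 6.41, the Dvl1 promoter between 1.98 and 4.01, Lrp6 between 1.24 and 6.11 and the Dvl1 body between -34.9 and -11.9. With the composition index Lrp6 was at 5.86 points, and it was at -3.88 points within library series 27 and 13.3 within series 37.

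Single CpGs of the members were tested in the same way. A CpG was called when its adjusted p was under 0.05 and its difference over 25 points. In the age comparison 2051 member CpGs could be tested and 0 were called, beside 0% of 527597 CpGs. Without adjustment 85 member CpGs had a p under 0.05, or 4.14%, beside 4.42% of all CpGs, and 68 of the 85 were lower in Aged STD, as were 17551 of 23304 over all CpGs. A gap above 25 points was found at 156 member CpGs (7.61%, beside 9.35% of all CpGs), of which 110, or 70.5%, were lower, beside 76.8% over all CpGs. This direction depended on the model. With the composition index 37 of 112 member CpGs with a p under 0.05 were lower, beside 11249 of 24899 over all CpGs. Among gaps above 25 points it was 95 of 194, beside 31004 of 52304 over all CpGs. Between Aged ENR and Aged STD 0 of 2070 were called (0% of all), 43 had a p under 0.05 (2.08%, beside 2.25%), 13 of them lower in Aged ENR (4230 of 11913 over all CpGs), and 132 differed by over 25 points (6.38%, beside 7.15%), 47 of them lower (35.6%, beside 36.6%). With the composition index 57 of 83 were lower at a p under 0.05 (9435 of 16595 over all CpGs). Among gaps above 25 points 67 of 144 were lower (18923 of 41370 over all CpGs). The counts without Aged STD replicates 3, 4 and 6 were 36 of 48 (6537 of 10974 over all CpGs) and 48 of 94 (15512 of 28365). Between Aged ENR and Young STD 0 of 1976 were called (0% of all), and 67 had a p under 0.05 (3.39%, beside 3.95%). Of the 67, 45 were lower in Aged ENR (13352 of 20652 over all CpGs). With the composition index 29 of 97 member CpGs were lower, beside 12345 of 24969 over all CpGs. In the fit without the index 122 differed by over 25 points (6.17%, beside 7.6%).

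Large differences at single CpGs were rarely matched by their partner on the other strand. At 28 CpGs of intermediate level that were measured on both strands, the values of a mouse on the 2 strands differed with an SD of 38.0 points over 327 pairs. Of 10 CpGs that moved by more than 25 points with age on the plus strand, 5 had the same sign on the minus strand and 1 was also over 25 points there.

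Few CpGs kept the groups apart. Among member CpGs with a value in each mouse compared, overlap was lacking at 0 of 353 between Aged STD and Young STD (0.356% of all such CpGs), at 0 of 361 between Aged ENR and Aged STD (0.0136%) and at 1 of 409 between Aged ENR and Young STD (0.275%). That CpG lies in an exon of Wnt10a at chr1:74803980 on the plus strand. It was at 0% in all 7 Aged ENR mice and averaged 18.7% in the Young STD mice, which ran from 4.08% over a median of 13.3% to 51.6% (limma adjusted p = 0.776).

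A CpG in an intron of Wnt5b, a ligand gene, had the smallest p of the member CpGs between Aged STD and Young STD, and it was named after its values were seen. It lies at chr6:119520777 on the plus strand, 23541 bases from the nearest start, and is the CpG in capitals in this stretch of the plus strand (chr6:119520769-119520785).
Wnt5b intron: aagaggacCGggaggga
The Young STD mice with a value had 28.6%, 48.1%, 43.8% and 44.4%, and of the 6 Aged STD mice 5 had 0% and the other 6.62%. The groups did not overlap, and the difference was -40.1 points (limma adjusted p = 0.666). The Aged ENR mice were split, with 0%, 28.2%, 41.4%, 0% and 36.8%. A fit with a single prior variance for all CpGs gave this CpG an adjusted p of 0.0188. That fit called 1 of 2051 member CpGs, beside 120 of 527597 CpGs of the whole table.

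The other 52 genes of the pathway were read from the same fits. None of their 94 regions passed the test in any comparison. An unadjusted p under 0.05 was reached at 5 (4 lower), 1 (lower) and 3 (1 lower) of them, in the order of the comparisons above, or 5.32%, 1.06% and 3.19%, beside 8.63%, 4.55% and 7.04% of all regions. Promoters of granule cell and neuron markers were low, with 6 measured markers between 1.30% and 6.24%. Their bodies averaged 19.4% ± 1.70 in Young STD, 15.7% ± 2.69 in Aged STD and 19.9% ± 2.39 in Aged ENR. Between Aged ENR and Aged STD 3 of these 7 bodies had an unadjusted p under 0.05, all higher in Aged ENR (42.9%, beside 4.64% of all bodies, of which 551 of 775 were higher). Their promoters were lower in Aged ENR in 5 of 6, with an unadjusted p under 0.05 at 1 of the 6, which was lower, beside 4.48% of all promoters. Oligodendrocyte marker bodies averaged 47.3% ± 3.78, 40.9% ± 7.97 and 46.1% ± 3.44, and 2 of 6 had a p under 0.05 between Aged STD and Young STD, both lower in Aged STD, beside 11.2% of all bodies, of which 1655 of 1867 were lower. Of the 6 only 3 were lower in Aged STD. Promoters of oligodendrocyte markers averaged 22.01% ± 7.18 in Young STD, 17.6% ± 5.51 in Aged STD and 19.5% ± 6.14 in Aged ENR, and the bodies of astrocyte markers 44.9% ± 5.77, 36.7% ± 6.06 and 39.7% ± 6.72. The ranges of the groups overlapped in all of these lists. Mean marker body levels, like those of the Wnt classes other than the receptors, were lowest in Aged STD. Over all bodies the median difference was -2.17 points between Aged STD and Young STD and 0.72 points between Aged ENR and Aged STD. The ligand body differences turned to 1.24 and -1.40 points in these comparisons without Aged STD replicates 3, 4 and 6. The part of these cell types in the differences of the Wnt genes was not tested.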

How the data were processed

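The study profiled dentate gyrus of single mice by RRBS; 24 libraries are described in the labels, and the 19 mice of the table used here are reported (the Young ENR libraries were not analysed here). Per the labels, the authors trimmed reads with Trim Galore 0.4.0 and cutadapt 1.8.1, mapped them to mm10 with Bismark 0.16.1 and extracted methylation with methylKit 1.5.2; the study's methods name other versions of Trim Galore and Bismark. The deposited values are the percent of reads at a cytosine that were methylated, per mouse, kept by the authors above a minimum read number, with no replicates pooled. Such a filter removes CpGs by depth, and the mice differed in the CpGs they covered. The part of depth in this was not tested. Of 762182 cytosines, 762162 were CpGs in GRCm38 and were used. Read numbers were not in the table, so the tests on reads of the study could not be run.

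Regions of all genes of GENCODE M21 and all CpGs were tested 2 groups at a time on the percent scale with least squares per feature and limma 3.58.1 (R 4.3.3) empirical Bayes with a prior variance trended on mean methylation, two-sided, with Benjamini-Hochberg adjustment over all features. The scripts were tested on simulated data. Exact permutation tests over mice were added for named regions. Group and replicate came from the labels, as did library series 27 and 37. Members, lists and tests were chosen with earlier results of these data known. Named regions were those called, and in each comparison the 4 largest differences in each direction among member regions with 5 or more CpGs. Levels named were the highest and lowest Young STD value of each class and promoters over 20%. CpGs named were those called or, among CpGs measured in all mice compared, those whose groups do not overlap. Same-numbered mice did not deviate together (1 of 5, 0 of 7 and 0 of 5 pairs correlated over 0.1), so mice were not treated as pairs. So few pairs cannot exclude a pairing. The largest share of identical partial values between any 2 mice was 0.506%, so no library was counted as deposited again. Figures and summaries used Python 3.11.15. P-values measure the spread between these libraries, each of 1 mouse. Alternatives were a replicate block, the composition index, library series or all groups in the model, a logit scale, no variance trend, other promoter widths and CpG minimums, plain means, CpGs measured in all mice, and leaving out each mouse; leaving out Aged STD replicates 3, 4 and 6 together was chosen after seeing the data.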

Additional observations from a re-analysis of the deposited data

Results flagged for a closer look

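A mouse stood far from the rest of its group in 11 of 104 group values checked by the gap to its nearest neighbour. By chance this check picks about 1 in 20 independent groups, but these values share mice and come in part from regions named for large differences and from promoters near 0%, so nothing is read from the count. At promoters these were Dvl1 in Aged STD replicate 2 (12.4%, the others 17.6% to 19.3%), Dvl3 in Aged STD replicate 2 (10.4%, the others -0.401% to 2.37%), Fzd8 in Aged STD replicate 4 (6.41%, the others 0.189% to 1.18%), Wnt3 in Aged ENR replicate 3 (8.90%, the others 3.58% to 4.90%) and Wnt3a in Aged STD replicate 5 (14.6%, the others -0.0365% to 5.02%).

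At bodies they were Dvl2 in Aged ENR replicate 2 (48.1%, the others 72.5% to 79.0%), Fzd3 in Aged STD replicate 3 (42.9%, the others 78.0% to 90.5%), Fzd7 in Aged ENR replicate 7 (3.63%, the others 19.0% to 28.7%) and Wnt5a in Aged ENR replicate 5 (13.6%, the others 2.00% to 5.44%). Among class means, the ligand promoters of Aged ENR replicate 6 stood at 6.79% (the others 3.71% to 4.90%) and the receptor promoters of Aged STD replicate 6 at 4.33% (the others 6.28% to 7.70%). The cause of these values was not tested.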

How the results depend on the processing

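No member region was called under any alternative, and of 24 named differences 21 kept their sign under all of them. The smallest adjusted p of member regions over the alternatives was 0.113 for Aged STD against Young STD, 0.777 for Aged ENR against Aged STD and 0.0965 for Aged ENR against Young STD. For member CpGs it was 0.0188, 0.674 and 0.201. A single prior variance for all CpGs called 1 of 2051 member CpGs between Aged STD and Young STD, beside 120 of all 527597 CpGs. The body of Fzd7 turned to -3.59 points in that comparison with promoters of 2000 bases. The body of Dvl1 turned to 1.51 points (Aged ENR against Aged STD) with a minimum of 1 CpG and to 8.16 points (Aged ENR against Young STD) with the composition index. With the replicate number as a block, 0 regions and 0 CpGs were called and the smallest adjusted p of member regions was 0.7185, 0.932 and 0.656. Same-numbered mice did not deviate together, and 1 of 5, 2 of 7 and 2 of 5 correlated best with their own number. With CpGs measured in all mice, 0 of 5 genes had the promoter lower in every mouse, and class means became 7.58% and 10.1% (ligand promoters and bodies), 1.41% and 3.60% (receptor), 2.92% (inhibitor promoters), 2.49% and 8.01% (intracellular). With promoters of 500 bases they were 19.1% (ligand bodies), 2.53% and 28.9% (receptor promoters and bodies), 49.5% (inhibitor bodies) and 7.29% (intracellular promoters), and with promoters of 2000 bases 30.5%, 46.8% and 74.3% (ligand, receptor and inhibitor bodies) and 9.51% (intracellular promoters). Averaging CpGs instead of genes gave 16.9% (ligand bodies), 1.92% and 17.3% (receptor promoters and bodies) and 5.30% (intracellular promoters). Without Aged STD replicates 3, 4 and 6, which left fewer regions, receptor promoters were at 2.81% and inhibitor bodies at 69.1%. These settings differ in the CpGs, genes or mice that enter a mean, or in their weights. Leaving out single mice moved no class mean by more than its spread and made no call. Read depth was not in the table.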
